A study of Homo sapiens with 16 samples.

Results

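The caveola genes followed were 6: the caveolins CAV1 and CAV2, the cavins CAVIN1 and CAVIN3, and the accessory genes EHD2 and PACSIN2. They were picked by gene name, and these are 6 of the 58735 genes in each deposited table. These genes, and the gene lists set beside them below, were chosen with earlier results of these data known. Their counts of calls, set against all genes tested, are therefore not independent support. All 6 passed the filter on low counts in every comparison.

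Caveolae are small flask-shaped pits of the plasma membrane that are abundant in adipocytes, endothelium, muscle and fibroblast-like cells. Caveolins insert a hairpin into the inner leaflet and oligomerise, cavins bind them from the cytosol as an outer coat, EHD2 forms an ATPase ring at the neck, and PACSIN2 bends the membrane through its F-BAR domain. Caveolae flatten under membrane tension, and caveolin-1 is a long-known tyrosine substrate of Src-family kinases, the family to which YES1 belongs.

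Poly-A RNA was sequenced from SUM159PT and MDA-MB-231, established human triple-negative breast cancer lines whose genotype is labelled WT. Cells of both lines were transfected by lipofection with a guide RNA against YES1 (sgYES1) or a non-targeting guide RNA (sgNTS), and were collected 48 h later. The 4 groups were SUM159PT sgYES1, SUM159PT sgNTS, MDA-MB-231 sgYES1 and MDA-MB-231 sgNTS, with 4 libraries each and 16 in all. The submitters call the replicates technical, so the p-values measure only the spread between these samples. Which protein acts with the guide RNAs is not stated in the labels. The lines were grown in different media, so that line and medium cannot be told apart wherever the lines are compared.

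Gene counts summed to between 14352042 and 25124164 per library. Libraries within each group varied beyond sampling noise (chi-square per degree of freedom 2.22 to 26.2), and MDA-MB-231 sgNTS replicate 4 stood apart, at 26.2, 17.7 and 8.56 against replicates 1, 2 and 3. YES1 itself averaged 39.7 ± 0.754 CPM (the gene's count per 1e6 counts of the library, TMM-scaled; SD, n = 4) in SUM159PT sgYES1 and 94.2 ± 3.21 in SUM159PT sgNTS. In MDA-MB-231 it averaged 42.7 ± 1.10 CPM in sgYES1 and 108 ± 3.07 CPM in sgNTS. The line markers VIM, KRT8, KRT18 and EGFR were above 1 CPM on average in every group, PGR had no counts in any group, ESR1 stayed below 1 CPM, and ERBB2 was the receptor gene with counts above that level.

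Because caveolin-1 and caveolin-2 are Src-family substrates at tyrosines near their amino terminus (tyrosine 14 of caveolin-1, tyrosines 19 and 27 of caveolin-2, as background), the first 30 codons of each coding sequence are shown. They come from the transcripts CAV1-201 and CAV2-201 of GENCODE 29, 5′ to 3′, with every tyrosine codon in capitals. In CAV1 these are codons 6, 14 and 25.
CAV1: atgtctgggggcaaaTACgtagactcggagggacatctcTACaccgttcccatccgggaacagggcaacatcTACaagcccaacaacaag
CAV2: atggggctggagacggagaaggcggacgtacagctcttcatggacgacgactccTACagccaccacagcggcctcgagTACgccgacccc
In CAV2 the capitals are codons 19 and 27. These libraries measure RNA, and phosphorylation was not measured.

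CAV1 and CAV2 are neighbours on chromosome 7 and yet differed in response, as described next, so the surroundings of their starts are also shown. RefSeq promoter windows (GRCh38.p14, 250 bases before to 50 after a start) matched 4 of the 6 genes: CAV1, CAV2, EHD2 and PACSIN2. The GC box GGGCGG, searched on both strands, lay in 45% of all 35116 windows, and 3 copies lay in the CAV1 window that holds the gene's first base. The windows below are 30 bases long, on the plus strand, with the GC box in capitals (as CCGCCC where it reads on the minus strand), and they are printed to set both genes side by side.
CAV1, chr7:116524817-116524846: tgcgggcgctccCCGCCCtctgctgccaga
CAV1, chr7:116524905-116524934: caaacctttggcGGGCGGccaggaggctcc
CAV1, chr7:116524933-116524962: ccctcccagccaCCGCCCccctccagcgcc
CAV2, chr7:116499641-116499670: gggaagcggccgCCGCCCgggcctcgcagg
CAV2, chr7:116499677-116499706: cgaggcgaggggGGGCGGggccgggcgcta
The CAV2 copies shown are those nearest the start in a window that held 6, while a second CAV2 window held 4. The CAV1 window farthest downstream held 2, the EHD2 window held 1, and 1 of the 6 PACSIN2 windows held 2. Of the other letters searched on both strands, GGAATG (TEAD), TGACTCA (AP-1), TTTGAA (CHR) and TGACGTCA (CRE) were in 14%, 4.95%, 15.2% and 1.85% of all windows. None of these was in a window of CAV1, CAV2 or EHD2, and GGAATG was in 4 of the 6 PACSIN2 windows. Of these 4, the windows that start at bases 42959807, 42959832 and 42959850 overlap over most of their length and may hold the same copy. A match describes these letters only and is not a binding site.

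The guide against YES1 was followed by changes in 5 of the 6 caveola genes in each line, and the direction depended on the gene and the line. In SUM159PT, 4 genes fell (CAV1, CAV2, CAVIN3 and PACSIN2) and CAVIN1 rose, by edgeR's quasi-likelihood test with Benjamini-Hochberg adjusted p under 0.05. In MDA-MB-231, 4 genes fell (CAV1, CAV2, CAVIN1 and CAVIN3) and PACSIN2 rose. EHD2 did not pass the threshold in either line. Calls were common: 39.4% of 14479 genes tested in SUM159PT were called (19.6% higher, 19.7% lower), and 42.8% of 15427 in MDA-MB-231 (20.8% higher, 22.1% lower). The MDA-MB-231 calls were 3205 higher and 3402 lower, and 3956 higher and 2661 lower with library totals as the only scaling. The libraries of both guides did not overlap for 5 of the 6 genes in each line, against 35% of genes tested in SUM159PT (16.8% higher, 18.2% lower) and 39.2% in MDA-MB-231 (19.2% higher, 20% lower). In these bulk samples fewer cells that express a gene and less RNA per cell cannot be told apart.

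CAV1, which encodes the main structural protein of caveolae outside muscle, fell in both lines and fell the most of the 6 genes. Its level was 149, 145, 147 and 142 CPM in SUM159PT sgYES1, against 207, 238, 211 and 214 CPM in SUM159PT sgNTS. Every sgYES1 library was below every sgNTS library, and sgNTS replicate 2 was the highest. The level was 1.49-fold lower (log2 fold change -0.57, SE 0.05, adjusted p = 5.52e-09, n = 4 against 4 by edgeR). In MDA-MB-231, where the gene was higher throughout, the level was 377, 408, 373 and 399 CPM in sgYES1, against 712, 735, 732 and 769 CPM in sgNTS. The groups again did not overlap, and CAV1 was 1.90-fold lower (log2 fold change -0.92, SE 0.04, edgeR adjusted p = 5.04e-10). It was the 55th lowest log2 fold change of 15427 genes in MDA-MB-231 and the 503rd lowest of 14479 in SUM159PT. The gene (ENSG00000105974) occupies bases 116524785 to 116561184 of chromosome 7 on the plus strand in hg38.

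CAV2, whose product joins caveolin-1 in mixed oligomers, fell far less than CAV1. It had 41.1, 34.4, 35.3 and 37.4 CPM in SUM159PT sgYES1, against 41.7, 45.5, 42.0 and 41.5 CPM in SUM159PT sgNTS. The gap between the groups was narrow, since sgYES1 replicate 1 lay just under the lowest sgNTS library. The log2 fold change was -0.19 (SE 0.06, edgeR adjusted p = 0.0209), and this call ended without sgNTS replicate 2 (-0.16, adjusted p = 0.065), sgYES1 replicate 2 (-0.16, 0.0714) or sgYES1 replicate 3 (-0.17, 0.0702). In MDA-MB-231, CAV2 had 129, 139, 138 and 139 CPM in sgYES1, against 159, 151, 148 and 155 CPM in sgNTS. Replicate 1 was the low library of sgYES1, and no library of either guide crossed into the other group. The log2 fold change was -0.17 (SE 0.04, edgeR adjusted p = 0.00239). CAV2 (ENSG00000105971) lies on the plus strand of chromosome 7 from 116287380 to 116508541, and antisense genes that overlap it averaged 19.9 and 10.8 counts per library, against 1858 for CAV2.

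**Figure D1:**
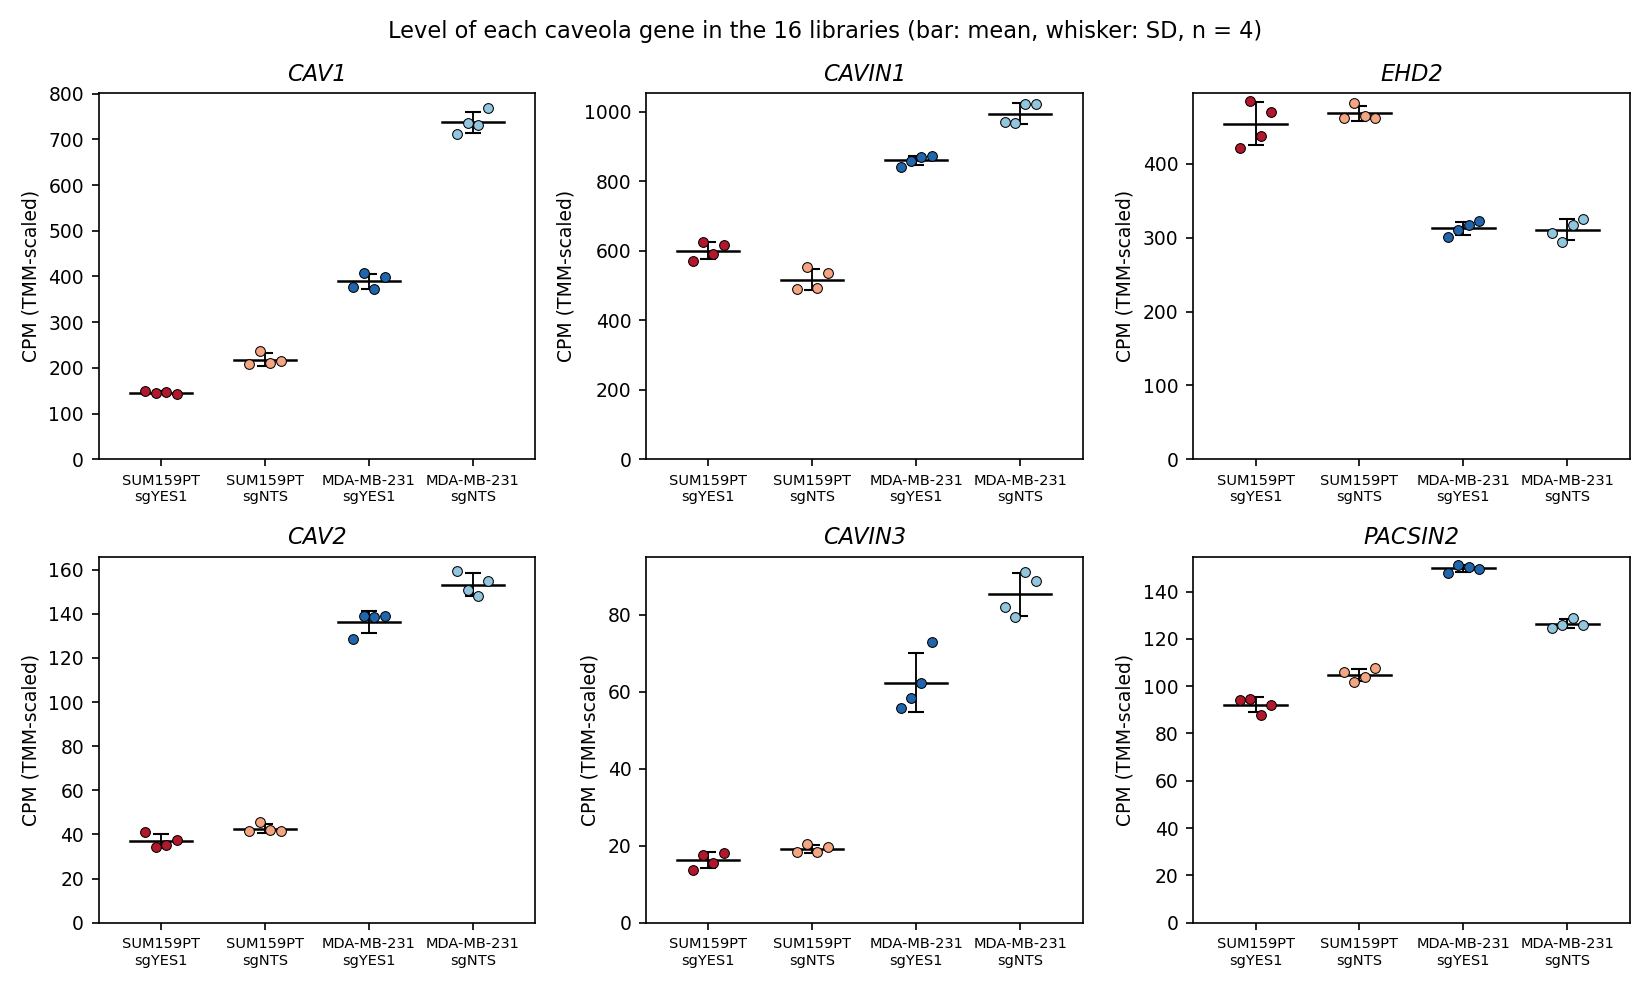
TMM-scaled CPM (vertical axis, from 0) of each of the 6 caveola genes in the 4 groups of 4 libraries (horizontal axis); points are libraries, bars are means and whiskers are SD. CAV1 lies lower with sgYES1 in both lines, CAVIN1 and PACSIN2 lie on opposite sides of sgNTS in the 2 lines, and the EHD2 libraries of both guides overlap.

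CAVIN1, the cavin without which caveolae do not form, moved in opposite directions in the lines. In SUM159PT its level was 572, 627, 590 and 616 CPM in sgYES1, against 489, 553, 493 and 535 CPM in sgNTS. All sgYES1 libraries were above all sgNTS libraries, with replicates 2 and 4 the higher ones of both groups. It rose 1.17-fold (log2 fold change 0.22, SE 0.04, edgeR adjusted p = 0.00026). In MDA-MB-231 the level was 842, 859, 869 and 872 CPM in sgYES1, against 970, 967, 1022 and 1022 CPM in sgNTS. Here every sgYES1 library was the lower one, by 1.16-fold (log2 fold change -0.21, SE 0.03, edgeR adjusted p = 0.000138). The gene (ENSG00000177469; chromosome 17, minus strand) spans 42402452 to 42423517.

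CAVIN3, a cavin that binds CAVIN1 and protein kinase C delta, was the member with the fewest counts in SUM159PT (259 to 395 per library). It had 13.7, 17.6, 15.6 and 18.1 CPM in SUM159PT sgYES1, against 18.3, 20.5, 18.5 and 19.6 CPM in SUM159PT sgNTS. The groups nearly touched at 18.1 and 18.3 CPM. The log2 fold change was -0.24 (SE 0.09, edgeR adjusted p = 0.0376). The call ended without sgNTS replicate 2 (-0.21, adjusted p = 0.088), sgNTS replicate 4 (-0.24, 0.0766), sgYES1 replicate 1 (-0.16, 0.142) or sgYES1 replicate 3 (-0.22, 0.092), with library totals as the only scaling (-0.21, 0.0612) and by DESeq2 (-0.23, 0.0523). In MDA-MB-231, CAVIN3 had 55.8, 58.3, 62.4 and 73.0 CPM in sgYES1, against 82.0, 79.4, 91.2 and 88.8 CPM in sgNTS. The highest sgYES1 library, replicate 4, was still below the lowest sgNTS library. The log2 fold change was -0.45 (SE 0.07, edgeR adjusted p = 0.000193), the second in size after CAV1 among the 6 genes. CAVIN3 (ENSG00000170955; chromosome 11, minus strand) spans 6318946 to 6320647.

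EHD2, which confines caveolae to the cell surface, showed no call. Its level was 422, 486, 438 and 471 CPM in SUM159PT sgYES1, against 463, 483, 465 and 462 CPM in SUM159PT sgNTS. The 4 sgYES1 libraries spread on both sides of the sgNTS libraries. The log2 fold change was -0.04 (95% interval -0.12 to 0.05, edgeR adjusted p = 0.525). MDA-MB-231 had 301, 311, 317 and 322 CPM in sgYES1, against 307, 294, 317 and 326 CPM in sgNTS. These values interleave, and the log2 fold change was 0.00 (95% interval -0.08 to 0.09, edgeR adjusted p = 0.935). Its sign turned on leaving out any of 4 libraries (sgNTS replicates 1 and 2, sgYES1 replicates 3 and 4; lowest value -0.03) and with no filter on low counts (-0.02). EHD2 (ENSG00000024422) lies on the plus strand of chromosome 19, from 47713343 to 47743134.

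PACSIN2, also called syndapin 2, fell in SUM159PT and rose in MDA-MB-231. Levels were 94.1, 94.7, 87.9 and 92.1 CPM in SUM159PT sgYES1, against 106, 102, 104 and 108 CPM in SUM159PT sgNTS. The groups did not overlap, and the log2 fold change was -0.18 (SE 0.05, edgeR adjusted p = 0.00355). In MDA-MB-231 they were 148, 151, 150 and 150 CPM in sgYES1, against 124, 126, 129 and 126 CPM in sgNTS. Each group was tight and the groups stood clearly apart, with a log2 fold change of 0.24 (SE 0.03, edgeR adjusted p = 3.38e-05). PACSIN2 (ENSG00000100266, chromosome 22, minus strand, 42835412 to 43015145) overlaps ARFGAP3 on the same strand, which averaged 726.5 counts against 2286 for PACSIN2, so its count is uncertain.

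The difference between the lines was tested with a line-by-guide term in a fit of the 16 libraries (SUM159PT effect minus MDA-MB-231 effect). It was called for 3 of the 6 genes, 2 higher and 1 lower, against 24.5% of 16640 genes tested (12.7% higher, 11.9% lower). For CAV1 the difference was 0.34 on the log2 scale (95% interval 0.22 to 0.47, edgeR adjusted p = 0.000176): the fall was smaller in SUM159PT. CAVIN1 differed by 0.43 (95% interval 0.31 to 0.55, edgeR adjusted p = 7.25e-06) and PACSIN2 by -0.43 (95% interval -0.54 to -0.32, edgeR adjusted p = 1.61e-06). CAV2 was not called (-0.03, 95% interval -0.18 to 0.12, adjusted p = 0.828), nor was EHD2 (-0.05, 95% interval -0.18 to 0.07, adjusted p = 0.58). CAVIN3 was not called with all libraries (0.20, 95% interval -0.05 to 0.45, adjusted p = 0.243) and was called without MDA-MB-231 sgYES1 replicate 4 (0.32, adjusted p = 0.0294). The difference for YES1 itself was 0.09 (95% interval -0.04 to 0.21, adjusted p = 0.308).

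Without MDA-MB-231 sgNTS replicate 4, the library that stood apart, the calls in MDA-MB-231 held for all 5 genes. The log2 fold changes were then -0.90 for CAV1, -0.17 for CAV2, -0.20 for CAVIN1, -0.43 for CAVIN3 and 0.24 for PACSIN2, and that of EHD2 was 0.03 (adjusted p = 0.601). The differences between lines without it were 0.35 for CAV1, 0.44 for CAVIN1 and -0.40 for PACSIN2, each still called.

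Caveola genes are also markers of cell types rich in caveolae, so these were measured. The 8 endothelial markers summed to 6.04 to 11.5 CPM in SUM159PT sgYES1 and 7.53 to 8.55 CPM in SUM159PT sgNTS, and to 8.07 to 10.8 CPM in MDA-MB-231 sgYES1 and 4.60 to 5.97 CPM in MDA-MB-231 sgNTS. CDH5, TEK and PLVAP had no counts in SUM159PT sgNTS and EMCN none in either group of MDA-MB-231, and PECAM1 and KDR alone passed 1 CPM on average. The 5 adipocyte markers summed to 7.89 to 11.6 CPM in SUM159PT sgYES1 and 4.02 to 6.24 CPM in SUM159PT sgNTS, and in MDA-MB-231 to 0.689 to 0.991 CPM in sgYES1 and 0.212 to 0.676 CPM in sgNTS. PLIN1 and CIDEC passed 1 CPM on average in both SUM159PT groups, and no adipocyte marker did in MDA-MB-231. ADIPOQ, which defines adipocytes, had no counts in SUM159PT sgNTS or in either group of MDA-MB-231, and had counts below 1 CPM on average in SUM159PT sgYES1. The 6 leukocyte markers summed to 0.931 to 1.72 CPM in SUM159PT sgYES1 and 0.139 to 0.594 CPM in SUM159PT sgNTS. In MDA-MB-231 they summed to 2.91 to 3.65 CPM in sgYES1 and 1.14 to 1.99 CPM in sgNTS. CD14 and ITGAM passed 1 CPM on average in MDA-MB-231 sgYES1, no leukocyte marker did in the other groups, and CD3E was at 0 throughout. The 4 smooth muscle markers summed to at most 2.04 CPM in any library. Every one of these 4 sums was below the lowest level of CAV1, CAV2, CAVIN1, CAVIN3, EHD2 or PACSIN2 in the same library group, and their part in the results was not tested.

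**Figure D2:**
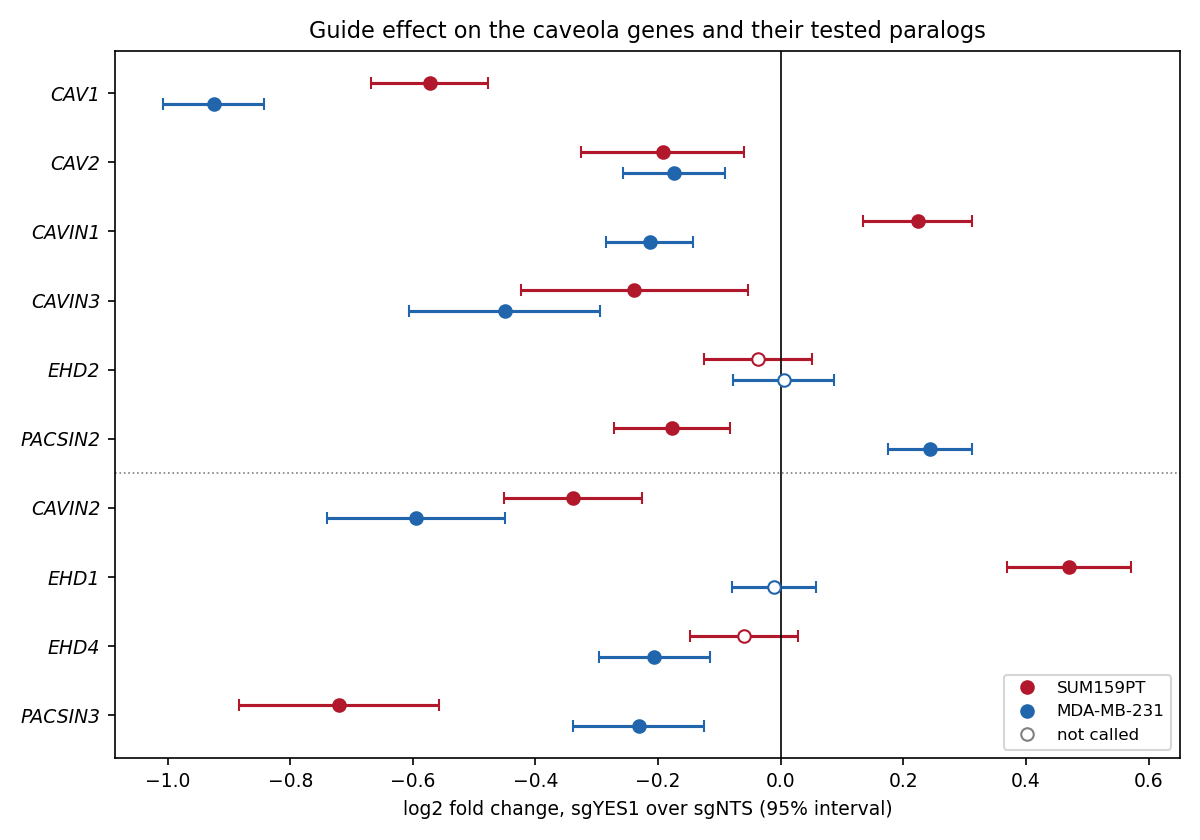
Log2 fold change of sgYES1 over sgNTS with its 95% interval (horizontal axis) for the 6 caveola genes, above the dotted line. Below it are the 4 paralogs called in either line or both. EHD3 and CAVIN4, which had no call for the guide where they were tested, are not shown. Red is SUM159PT, blue is MDA-MB-231 and open circles were not called. CAV1 lies at -0.57 in SUM159PT and -0.92 in MDA-MB-231, while CAVIN1 and PACSIN2 have intervals on opposite sides of 0 in the 2 lines.

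Counts of 2 genes within a library can be compared without any scaling of libraries, so the balance of the coat was followed as count ratios. The ratio of CAV2 to CAV1 counts was 0.277, 0.237, 0.240 and 0.263 in SUM159PT sgYES1, against 0.201, 0.191, 0.199 and 0.194 in SUM159PT sgNTS. In MDA-MB-231 it was 0.341, 0.340, 0.371 and 0.348 in sgYES1, against 0.224, 0.205, 0.202 and 0.201 in sgNTS. All sgYES1 libraries were above all sgNTS libraries of their line, and the sgNTS libraries of both lines lay close together. The log2 ratio was higher with sgYES1 by 0.37 in SUM159PT and by 0.75 in MDA-MB-231 (two-sided exact permutation p = 0.0286 in each, adjusted p = 0.0286 over 4 tests), and 0.0286 is the smallest p that 4 against 4 libraries allow.

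CAV1 was also lower relative to CAVIN1 with the YES1 guide in each line. The ratio of CAV1 to CAVIN1 counts was 0.260, 0.231, 0.249 and 0.231 in SUM159PT sgYES1, against 0.424, 0.430, 0.429 and 0.400 in SUM159PT sgNTS. In MDA-MB-231 it was 0.448, 0.475, 0.429 and 0.458 in sgYES1, against 0.734, 0.761, 0.716 and 0.752 in sgNTS. The groups of a line did not overlap. The log2 ratio changed by -0.80 in SUM159PT and -0.71 in MDA-MB-231 (two-sided exact permutation p = 0.0286 and adjusted p = 0.0286 in each). In SUM159PT this p was fixed by the levels given above and adds nothing to them. Every sgYES1 library there was already lower in CAV1 and higher in CAVIN1 than every sgNTS library. The ratio shows unequal change of the 2 genes only, since CAVIN1 itself rose in SUM159PT and fell in MDA-MB-231.

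**Figure D3:**
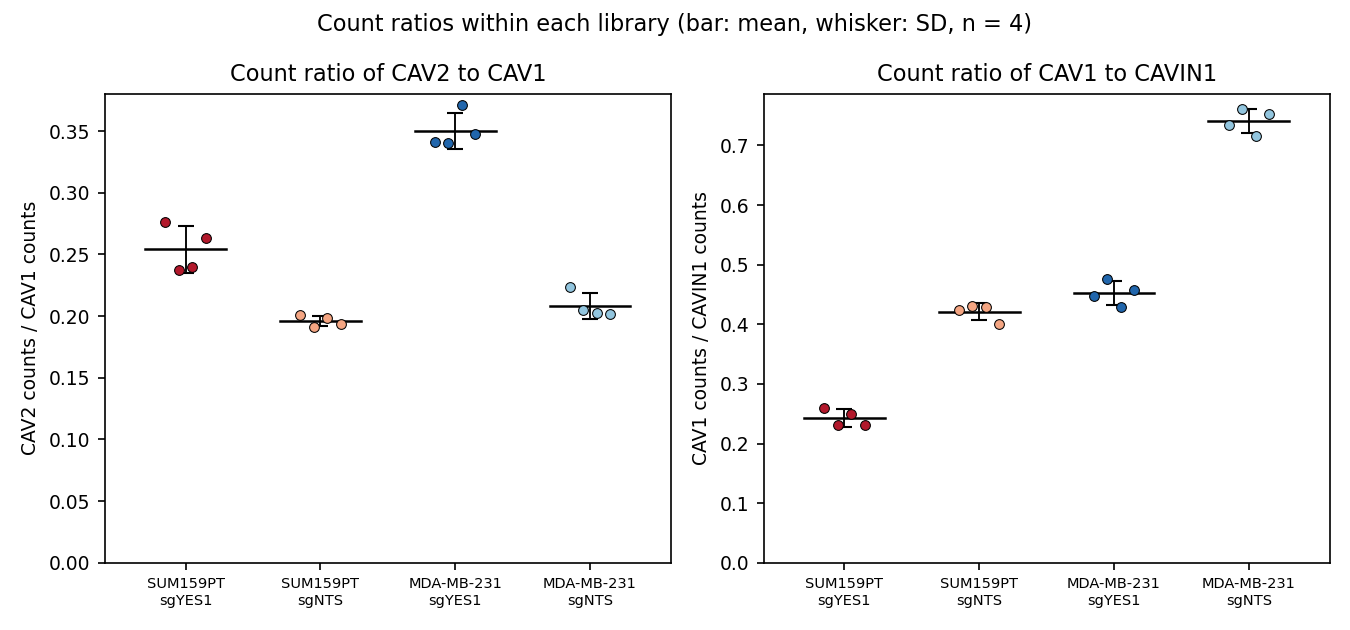
Ratio of CAV2 to CAV1 counts (left) and of CAV1 to CAVIN1 counts (right) in every library (vertical axes, from 0) for the 4 groups (horizontal axes); bars are means and whiskers are SD. With sgYES1 the first ratio is higher and the second lower in both lines, with no overlap between the guides of a line.

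The members also differed between the lines in the absence of the YES1 guide. In SUM159PT sgNTS against MDA-MB-231 sgNTS, 5 of the 6 genes were lower and 1 was higher, and all 6 had no overlap between libraries. Such calls were the rule, at 82.7% of 15567 genes tested (40.4% higher, 42.3% lower), with 77.6% not overlapping (38.4% higher, 39.2% lower). CAV1 was 3.42-fold lower (218 ± 13.7 CPM in SUM159PT sgNTS and 737 ± 23.6 CPM in MDA-MB-231 sgNTS; log2 fold change -1.78, SE 0.04, edgeR adjusted p = 2.38e-14). CAV2 was 3.63-fold lower, with 42.7 ± 1.91 CPM in SUM159PT sgNTS and 153 ± 5.02 CPM in MDA-MB-231 sgNTS (SD, n = 4 each). CAVIN1 was 1.95-fold lower and CAVIN3 4.48-fold lower, while PACSIN2 was 1.22-fold lower. EHD2 alone was higher in SUM159PT, by 1.49-fold (468 ± 9.91 CPM in SUM159PT sgNTS and 311 ± 13.8 CPM in MDA-MB-231 sgNTS; log2 fold change 0.57, SE 0.04, edgeR adjusted p = 2.30e-09). This comparison shares the sgNTS libraries with both guide effects, and the 2 guide effects share none with each other.

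Between genes, levels were compared per kilobase of the summed exons in the deposited gene model. In SUM159PT the order was CAVIN1, EHD2, CAV1, PACSIN2, CAVIN3 and CAV2 with either guide. The levels ran through 157 ± 6.51, 116 ± 7.43, 35.7 ± 0.708, 20.2 ± 0.674, 9.72 ± 1.21 and 5.35 ± 0.433 CPM per kilobase in sgYES1 (SD, n = 4). In SUM159PT sgNTS they were 135 ± 8.21, 119 ± 2.53, 53.3 ± 3.36, 23.0 ± 0.580, 11.5 ± 0.619 and 6.16 ± 0.276 CPM per kilobase. CAV1 and EHD2 changed places in MDA-MB-231, as did CAVIN3 and PACSIN2, and the order there was CAVIN1, CAV1, EHD2, CAVIN3, PACSIN2 and CAV2 with either guide. The levels were 225 ± 3.51, 95.4 ± 4.22, 79.7 ± 2.31, 37.3 ± 4.55, 32.9 ± 0.315 and 19.7 ± 0.733 CPM per kilobase in sgYES1, and 260 ± 8.06, 181 ± 5.78, 79.3 ± 3.52, 51.0 ± 3.33, 27.7 ± 0.414 and 22.1 ± 0.725 in sgNTS. No pair of neighbours in any of these orders had overlapping libraries. The model of CAV2 holds 6926 bases of exon and that of CAV1 4082, and a model longer than the main transcript lowers a level per kilobase.

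**Figure D4:**
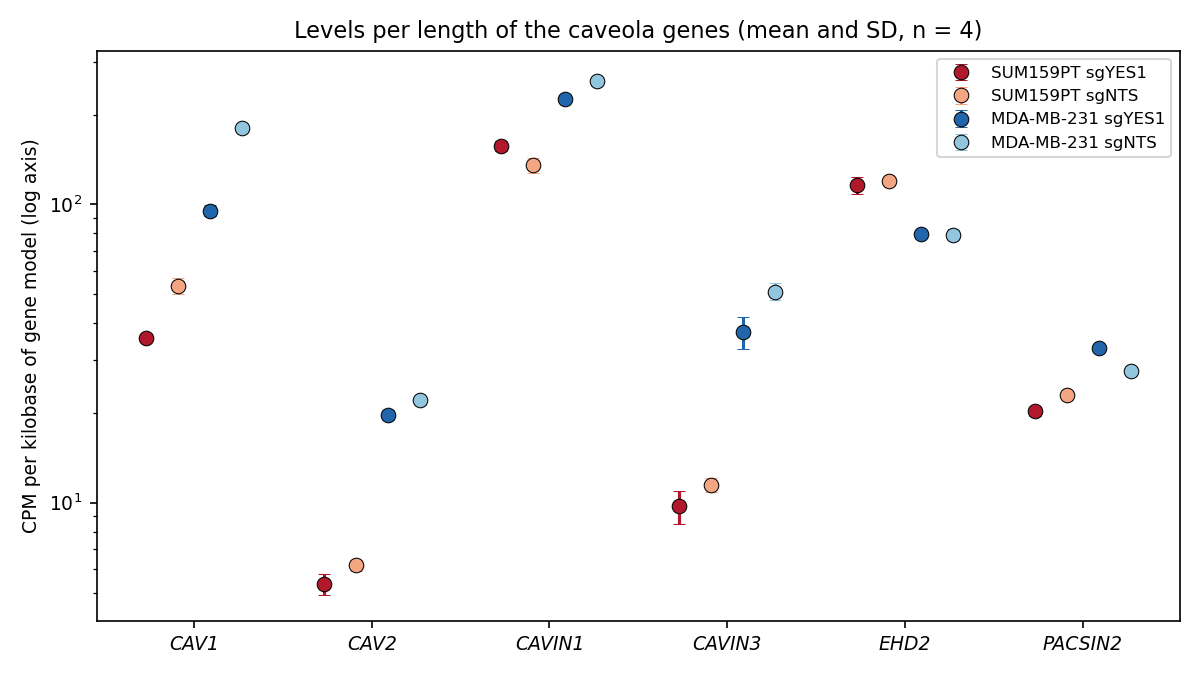
TMM-scaled CPM per kilobase of gene model (vertical axis, log scale) of the 6 caveola genes (horizontal axis); points are means of 4 libraries and whiskers are SD. CAVIN1 is the highest and CAV2 the lowest in each of the 4 groups, and EHD2 is the gene with more RNA in SUM159PT than in MDA-MB-231.

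The families of these genes gave 8 paralogs, of which 5 were tested in SUM159PT and 6 in MDA-MB-231. CAVIN2, the cavin that drives caveola shape in endothelium, fell in both lines, with 57.2 ± 3.06 CPM in SUM159PT sgYES1 and 72.7 ± 3.14 CPM in SUM159PT sgNTS (log2 fold change -0.34, edgeR adjusted p = 3.80e-05). In MDA-MB-231 it had 32.5 ± 2.85 CPM in sgYES1 and 49.0 ± 3.57 CPM in sgNTS (-0.59, adjusted p = 8.46e-06). All 3 cavins measured above 10 CPM therefore fell in MDA-MB-231, and CAVIN1 alone among them rose in SUM159PT. The difference between lines for CAVIN2 was 0.24 (adjusted p = 0.0417), a call that ended without MDA-MB-231 sgNTS replicate 1 (adjusted p = 0.069), MDA-MB-231 sgYES1 replicate 1 (0.104) or 3 (0.0656), or SUM159PT sgNTS replicate 4 (0.0524). CAVIN4, the muscle cavin, stayed at or below 2.10 CPM in every library and was not called in MDA-MB-231 (-0.09, adjusted p = 0.768; 0.083 without sgNTS replicate 2).

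EHD1, an ATPase of endosome recycling that is closely related to EHD2, behaved unlike it in SUM159PT, while neither was called in MDA-MB-231. Its level was 190 ± 14.1 CPM in SUM159PT sgYES1 and 138 ± 2.25 CPM in SUM159PT sgNTS, a rise of 1.39-fold (log2 fold change 0.47, SE 0.05, edgeR adjusted p = 1.96e-07). In MDA-MB-231 it had 667 ± 9.57 CPM in sgYES1 and 670 ± 16.8 CPM in sgNTS (-0.01, adjusted p = 0.818; 0.04 with library totals as the only scaling), and the difference between lines was 0.47 (adjusted p = 2.25e-06). EHD4 had -0.06 in SUM159PT (adjusted p = 0.283) and fell by 0.21 on the log2 scale in MDA-MB-231 (adjusted p = 0.00136), with a difference of 0.13 that was not called (adjusted p = 0.106). It was called by DESeq2 (0.16, adjusted p = 0.0463) and on leaving out SUM159PT sgYES1 replicate 2 (0.0397), SUM159PT sgYES1 replicate 3 (0.0262) or MDA-MB-231 sgYES1 replicate 2 (0.0475). EHD3, below 10 CPM in every library, was called in neither line (0.13 in SUM159PT, -0.09 in MDA-MB-231). PACSIN3, the paralog of PACSIN2 best known from muscle, fell in both lines, with 12.1 ± 0.129 CPM in SUM159PT sgYES1 and 20.1 ± 1.02 CPM in SUM159PT sgNTS (log2 fold change -0.72, adjusted p = 3.83e-07). In MDA-MB-231 it had 51.0 ± 2.33 CPM in sgYES1 and 59.8 ± 3.05 CPM in sgNTS (-0.23, adjusted p = 0.00185), and the difference between lines was -0.50 (adjusted p = 8.22e-05). PACSIN3 thus fell in MDA-MB-231, where PACSIN2 rose. CAV3, the muscle caveolin, and PACSIN1, the neuronal paralog, had at most 6 and 15 counts in a library and were not tested.

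The wider list of other caveola genes, 14 in all with these paralogs, had 1 gene higher and 4 lower of 10 tested in SUM159PT, and none higher and 6 lower of 11 tested in MDA-MB-231. Over all genes tested, 19.6% were called higher and 19.7% lower in SUM159PT, and 20.8% higher and 22.1% lower in MDA-MB-231. The median log2 fold change of the list was -0.05 in SUM159PT and -0.14 in MDA-MB-231, beside -0.01 and 0.01 for all genes tested. FLOT1, a flotillin of a separate membrane coat, fell by 0.22 on the log2 scale in SUM159PT (adjusted p = 0.000597) and by 0.15 in MDA-MB-231 (adjusted p = 0.0122), where library totals as the only scaling ended the call (-0.11, adjusted p = 0.0603). Its partner FLOT2 was not called in SUM159PT (-0.04, adjusted p = 0.525) and fell by 0.31 in MDA-MB-231 (adjusted p = 6.74e-05), with a difference between lines of 0.26 (adjusted p = 0.00318). DNM2, the dynamin that cuts vesicles from the membrane, fell by 0.14 in MDA-MB-231 (adjusted p = 0.00309) and had -0.05 in SUM159PT (adjusted p = 0.377). FLNA, the filamin that ties caveolae to actin, fell by 0.19 in SUM159PT (adjusted p = 5.14e-05) and had -0.03 in MDA-MB-231 (adjusted p = 0.568; 0.01 with library totals as the only scaling).

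CAV1 and CAV2 lie 16243 bases apart on the same strand, and their protein-coding neighbours within 500000 bases were read beside them. None fell with CAV1 in both lines. TES, upstream of CAV2, averaged 0.936 CPM over the SUM159PT libraries and 88.8 CPM over the MDA-MB-231 libraries (log2 fold change of SUM159PT sgNTS over MDA-MB-231 sgNTS -6.75, edgeR adjusted p = 8.98e-17). Its guide effects were not called (0.26 in SUM159PT, with 0.063 to 0.44 on leaving out 1 library, and -0.08 in MDA-MB-231), although leaving out MDA-MB-231 sgYES1 replicate 2 gave -0.11 (adjusted p = 0.0477). MET, the receptor tyrosine kinase gene downstream of CAV1, had 0.13 in SUM159PT (adjusted p = 0.0335) and 0.03 in MDA-MB-231 (adjusted p = 0.709), and its difference between lines was not called (0.09, adjusted p = 0.477). The SUM159PT libraries of MET overlapped, and the call was lost on leaving out sgNTS replicate 2 (adjusted p = 0.0785), 3 (0.0666), 4 (0.0704), sgYES1 replicate 1 (0.127) or sgYES1 replicate 3 (0.103), and in one fit of all 16 libraries (0.103). CAPZA2, an actin capping subunit, fell by 0.19 in MDA-MB-231 (adjusted p = 0.0032) and had 0.04 in SUM159PT (adjusted p = 0.653); its difference of 0.22 (adjusted p = 0.0426) was not called without MDA-MB-231 sgYES1 replicate 3 (adjusted p = 0.103), with library totals as the only scaling (0.054) or with a replicate block (0.089). ST7 had 0.22 in SUM159PT (adjusted p = 0.0356), a call lost on leaving out sgNTS replicate 2 (0.0685), sgNTS replicate 3 (0.109), sgYES1 replicate 1 (0.105) or sgYES1 replicate 3 (0.0792), and with no filter on low counts (0.0698), and 0.03 in MDA-MB-231 (adjusted p = 0.744). TFEC had too few counts to be tested.

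**Figure D5:**
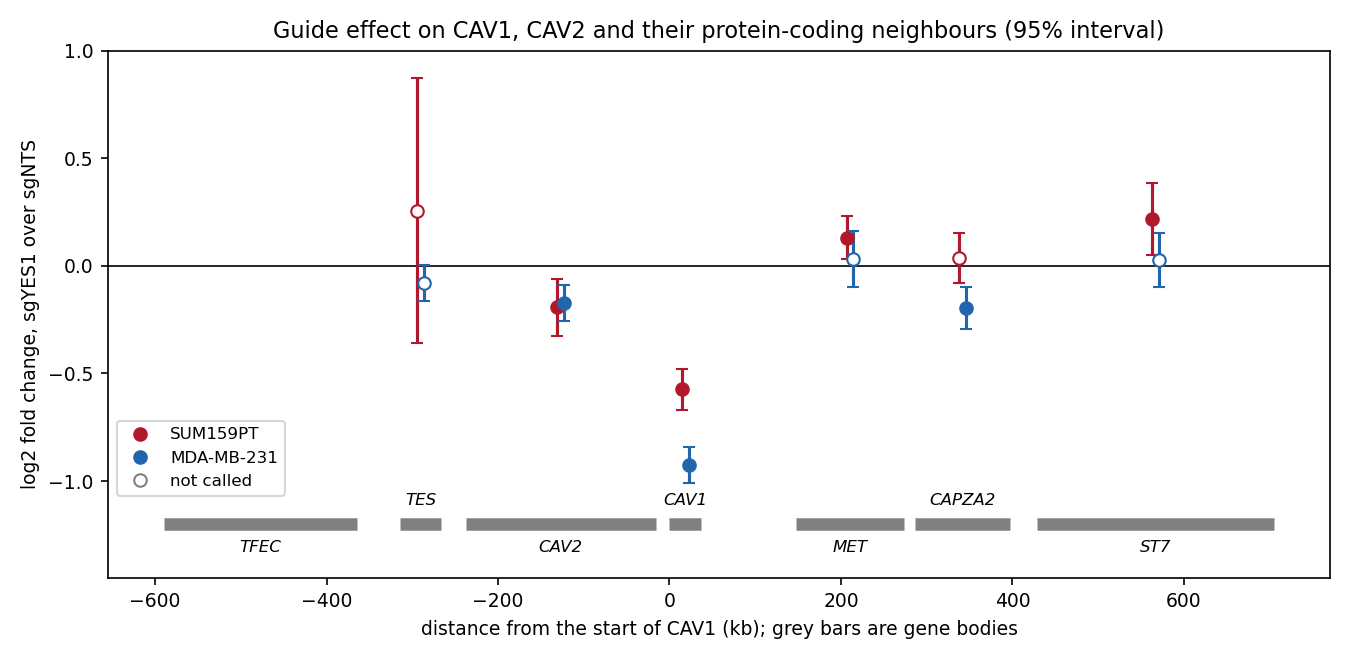
Log2 fold change of sgYES1 over sgNTS with its 95% interval (vertical axis) at the middle of each gene body, by distance in kilobases from the start of CAV1 (horizontal axis); grey bars are gene bodies, red is SUM159PT, blue is MDA-MB-231, and open circles were not called. CAV1 lies at -0.57 and -0.92, while its neighbours other than CAV2 lie between -0.19 and 0.26.

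The genes whose pattern over the 16 libraries was most like that of CAV1 were sought among 9510 protein-coding genes with at least 5 CPM in each line, by the root mean square difference of centred log2 CPM. This measure is dominated by the difference between lines, and the libraries share line and depth. The 16 libraries include those of both guides, so the guide effects of the genes found are not independent of the choice. Among the 5 nearest were CDKN2D (0.19), CTNNAL1 (0.19), CENPU (0.21) and ALDH7A1 (0.21). CDKN2D encodes a cyclin-dependent kinase inhibitor. Its log2 fold change was -0.29 in SUM159PT (edgeR adjusted p = 0.0204) and -0.61 in MDA-MB-231, each smaller in size than that of CAV1. The SUM159PT call ended without sgNTS replicate 3 (-0.23, edgeR adjusted p = 0.0861) or sgYES1 replicate 1 (-0.25, 0.0587). CAV2 came 113th from CAV1 (0.33) and CAVIN3 101st (0.33).

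Nearest to CAV2 were STAMBPL1 (0.10), FNBP1 (0.11), MCFD2 (0.11), DDX60 (0.11) and S100A4 (0.11). FNBP1 encodes an F-BAR protein of membrane bending, and S100A4 a calcium-binding protein. The log2 fold changes of FNBP1 were -0.25 in SUM159PT and -0.21 in MDA-MB-231, and those of S100A4 were -0.28 and -0.26. Of the 5 genes, 3 were called lower in SUM159PT and 4 in MDA-MB-231. MCFD2 had -0.02 in SUM159PT (edgeR adjusted p = 0.7485), and DDX60 was called in neither line (-0.12 in SUM159PT, -0.11 in MDA-MB-231). As for CAV1, these guide effects are not independent of how the genes were chosen. Of the 6 caveola genes CAVIN3 was the closest to CAV2, in 95th place (0.20), and EHD2 the farthest, in 7388th place (1.22).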

How the data were processed

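The authors deposited raw counts per gene, with no normalization, in 1 table per cell line, together with a gene length in bases that is used here only for levels per kilobase. The tools named in the submitters' processing notes are HISAT2 2.0.5 and featureCounts 1.5.0-p3, and the build is hg38. Strandedness and the treatment of reads that match several places are not given in the sources used here. Columns were matched to samples by cell line, guide and replicate number, and 0 columns belonged to other samples. No row lacked a gene.

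Tests used edgeR 4.0.16 in R 4.3.3 (quasi-likelihood, two-sided, TMM factors). The filterByExpr step required a count of 10 and a total of 15. P-values had Benjamini-Hochberg adjustment over all genes tested, with calls under 0.05. The guide effect of a line came from a fit of that line's 8 libraries alone, without covariates, and the difference between lines is the interaction over 16 libraries. CPM values use TMM factors over all 16 libraries, except those of the marker genes, which use library totals. The log2 CPM values use a prior count of 2. Ratios are of counts, tested by exact permutation. Scripts were checked on simulated counts.

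Alternatives were size factors of DESeq2 1.42.0, its Wald test, library totals, no filter, a replicate block, one fit of all libraries, a pseudocount of 5 for ratios, and leaving out each library. The genes named are the 6 members, YES1, all paralogs, up to 4 called genes of each list with the smallest p per line, the 5 nearest in pattern to CAV1 and CAV2, and protein-coding neighbours within 500000 bases; 1 gene near CAV1 in pattern is not reported here. Members and lists were chosen with earlier results of these data known. Sequences come from RefSeq (GRCh38.p14) and GENCODE 29.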

Additional observations from a re-analysis of the deposited data

Results flagged for a closer look

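Dixon's ratio (the gap of the highest or lowest of 4 libraries to the next, over the range) passed its 95% critical value in 4 of 36 groups of 4 libraries, where chance flags about 1 in 20. It was 0.951 for CAV2 log2 CPM in MDA-MB-231 sgYES1, where replicate 1 was low, and 0.881 for CAV2 in SUM159PT sgNTS, where replicate 2 was high. EHD2 in SUM159PT sgNTS reached 0.866 with replicate 2 high, and the log2 ratio of CAV2 to CAV1 in MDA-MB-231 sgNTS reached 0.846 with replicate 1 high. 

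The lines differed in their guide effect (SUM159PT minus MDA-MB-231, from the line-by-guide term) for CAV1 (0.34 on the log2 scale), CAVIN1 (0.43) and PACSIN2 (-0.43). Among paralogs the lines differed for CAVIN2 (0.24), EHD1 (0.47) and PACSIN3 (-0.50). Other genes with such a difference were FLOT2 (0.26, edgeR adjusted p = 0.00318) and AP2B1 (0.24, adjusted p = 0.00556). The values for CAPZA2 (0.22, adjusted p = 0.0426), FLNA (-0.17, adjusted p = 0.03) and AP2M1 (0.14, adjusted p = 0.0487) were less steady. That of CAPZA2 lost its call without MDA-MB-231 sgYES1 replicate 3 (adjusted p = 0.103), with library totals (0.054) and with a replicate block (0.089). The call of FLNA ended on leaving out any library but MDA-MB-231 sgNTS replicate 4 or sgYES1 replicate 4 (lowest value -0.16, highest -0.11 where it ended), with DESeq2 size factors (adjusted p = 0.0845), with DESeq2 (0.0851) and with a replicate block (0.0568). For AP2M1 it was lost on leaving out replicate 1 of either MDA-MB-231 group, MDA-MB-231 sgYES1 replicate 3, or replicate 4 of either SUM159PT group (0.12 to 0.15), and with library totals (adjusted p = 0.0526), no filter on low counts (0.0727) or a replicate block (0.0821).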

How the results depend on the processing

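All calls of the 6 members in both guide effects, in the difference between lines and between the sgNTS groups held under every planned setting that kept all libraries, except CAVIN3 in SUM159PT, which ended with library totals (-0.21, adjusted p = 0.0612) and with DESeq2 (-0.23, 0.0523); the cause was not tested. Signs of values near 0 turned for EHD2 (-0.023) and ST7 (-0.00045) in MDA-MB-231 without the filter, for EHD1 (0.035) and FLNA (0.012) in MDA-MB-231 and MCFD2 in SUM159PT (0.0058) with library totals, and for MET between the sgNTS groups (0.00 as reported; -0.0054 with DESeq2 size factors and with DESeq2, -0.0084 with library totals, -0.041 without the filter). Leaving out 1 library gave, in SUM159PT, -0.25 to -0.16 for CAV2, -0.29 to -0.16 for CAVIN3 and -0.019 to 0.071 for CAPZA2. In MDA-MB-231 it gave -0.025 to 0.029 for EHD2, -0.22 to 0.083 for CAVIN4, -0.031 to 0.0025 for EHD1, -0.066 to 0.0034 for FLNA and -0.015 to 0.080 for MET. For the difference between lines it gave -0.054 to 0.051 for CAV2, 0.14 to 0.32 for CAVIN3, -0.069 to 0.015 for EHD2, -0.16 to 0.22 for CAVIN4 and -0.11 to 0.0018 for FLOT1, and for MET between the sgNTS groups -0.049 to 0.061. Library totals moved the levels of CAVIN1 (882 CPM) and PACSIN2 (154 CPM) in MDA-MB-231 sgYES1 and of EHD2 in SUM159PT sgNTS (457 CPM) by more than 1 SD. Same-numbered libraries showed little common deviation over all genes (correlations -0.0831 to 0.032). Of the sgYES1 libraries, 2 of 4 in SUM159PT and 1 of 4 in MDA-MB-231 correlated best with their own number. The main fits therefore used no pairing by number, though these values cannot exclude one. With a replicate block CAV1 stayed at -0.57 in SUM159PT and -0.93 in MDA-MB-231, the counts of calls were 5886 and 5901, no member's call changed, the differences of CAVIN2 (0.25), FLNA (-0.17), AP2M1 (0.14) and CAPZA2 (0.22) lost their call, EPN1 gained one in SUM159PT (-0.10) and CAVIN4 had -0.0020 for the difference between lines. CAVIN3 had the fewest counts of the members in SUM159PT (259 to 395 per library).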

Other observations

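Clathrin-coated pits are the other main route of coated uptake, and 20 of their genes were read beside the caveola genes. In SUM159PT 1 was called higher and 6 lower of 19 tested (median log2 fold change -0.10), and in MDA-MB-231 1 higher and 8 lower of 20 tested (-0.09), beside medians of -0.01 and 0.01 for all genes. Over all genes tested 39.4% were called in SUM159PT (19.6% higher, 19.7% lower) and 42.8% in MDA-MB-231 (20.8% higher, 22.1% lower). The share of clathrin genes called in either direction was near that of all genes in each line. Whether the direction of their calls differs from that of all genes was not tested. In SUM159PT 12 were not called and in MDA-MB-231 11, and the genes named below were picked as called genes with the smallest p. The single higher call was absent in SUM159PT with no filter on low counts, in one fit of all 16 libraries and on leaving out 6 of the 8 libraries in turn. In MDA-MB-231 it was absent with no filter, a replicate block or DESeq2 and on leaving out 4 of the 8 libraries in turn, and library totals gave 2 higher calls. AP2B1, the beta subunit of the AP-2 adaptor, fell by 0.24 on the log2 scale in SUM159PT (edgeR adjusted p = 9.93e-05) and by 0.50 in MDA-MB-231 (adjusted p = 6.85e-07). AP2M1, its mu subunit, fell by 0.15 in SUM159PT (adjusted p = 0.00255) and by 0.30 in MDA-MB-231 (adjusted p = 1.03e-05). HIP1, which links pits to actin, fell by 0.18 in SUM159PT (adjusted p = 0.00701) and by 0.42 in MDA-MB-231 (adjusted p = 0.000333). SNX9, a partner of dynamin, fell by 0.29 in SUM159PT (adjusted p = 2.34e-05) and by 0.15 in MDA-MB-231 (adjusted p = 0.0179), where the call ended without sgNTS replicate 3 (0.0617), without sgYES1 replicate 3 (0.0539) or with library totals as the only scaling (0.085). EPS15 fell by 0.24 in SUM159PT (adjusted p = 0.00311) and had -0.13 in MDA-MB-231 (adjusted p = 0.1), where it was called without sgNTS replicate 1 (0.0295) and with no filter on low counts (0.0195). EPN1, an epsin, had -0.10 in SUM159PT (adjusted p = 0.057, with 0.00862 without sgYES1 replicate 2, 0.0389 in one fit of all 16 libraries and 0.0469 with a replicate block) and fell by 0.23 in MDA-MB-231 (adjusted p = 0.000214).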
